A study of Homo sapiens with 148 samples.

Results

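The 8 genes described here, NEUROG3, NEUROD1, INSM1, NKX2-2, PAX4, RFX6, ISL1 and MAFA, encode transcription factors of the pancreatic endocrine lineage. They were chosen by name from the 49085 gene names of an RNA-seq table, and all 8 are listed in it with 1 entry each. The table covers undifferentiated H9 human embryonic stem cells (hESCs) and cells derived from them by stepwise pancreatic differentiation in suspended spheroids: definitive endoderm (DE, day 4), primitive gut tube-like cells (PGT, day 7), pancreatic progenitors (PP, day 14), a stage named PH whose day and meaning the labels do not give, and organoids meant to hold β cells (SC-β organoids, day 35). All groups are wild-type H9 cells, so the series describes a single cell line. Among other additives, the medium held Activin A before DE, then KGF, then retinoic acid with the hedgehog inhibitor Sant1. After the PP stage it held an ALK5 inhibitor and the thyroid hormone T3. At first it also held retinoic acid, Sant1, betacellulin and XXI, a γ-secretase inhibitor that blocks Notch signalling. Each stage has 2 RNA-seq samples, and its column is the authors' mean TPM, a measure of transcript abundance that is corrected for gene length and scales every library to the same total. Neither the spread between replicates nor the read depth is known from these means, so no value below has an error, an interval or a test, and a value under 1 TPM has no known precision. Structural RNAs (those of the RN7SK and signal recognition particles and of RNase P and MRP) took 42.2% of all TPM in PP, 50.9% in PH and 33.9% in SC-β organoids (31.8% to 39.0% in the earlier stages), and the sources name both a ribosomal RNA removal kit and an mRNA kit. TPM of the other genes shrinks as this share grows, and its part in the differences below was not tested beyond the rescalings given. In bulk RNA, fewer cells that express a gene and less RNA per cell cannot be told apart.

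In the developing pancreas, NEUROG3 is the basic helix-loop-helix factor that commits progenitors to the endocrine fate. It is restrained by Notch signalling through HES1 and is normally expressed for a short time. It activates NEUROD1, another basic helix-loop-helix factor, as well as the zinc finger factor INSM1, the homeodomain factors NKX2-2 and PAX4, and the winged-helix factor RFX6. ISL1, a LIM-homeodomain factor, and MAFA, a basic leucine zipper activator of the insulin gene, act in later endocrine cells. Several of these genes also work elsewhere: NEUROD1, INSM1 and ISL1 are used by neurons, ISL1 by cardiac progenitors, and RFX6 by early gut endoderm.

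The genes are scattered over the genome (GENCODE version 44, GRCh38). NEUROG3 (ENSG00000122859.5) lies on the reverse strand of chromosome 10 from 69571698 to 69573422, NEUROD1 (ENSG00000162992.5) on the reverse strand of chromosome 2 from 181668295 to 181680827, and PAX4 (ENSG00000106331.19) on the reverse strand of chromosome 7 from 127610292 to 127618142. On the forward strand, RFX6 (ENSG00000185002.10) spans bases 116877212 to 116932161 of chromosome 6 and ISL1 (ENSG00000016082.15) spans bases 51383448 to 51394730 of chromosome 5. INSM1 (ENSG00000173404.5) and NKX2-2 (ENSG00000125820.6) are both on chromosome 20, from 20368104 to 20370949 on the forward strand and from 21511017 to 21514064 on the reverse strand. The canonical transcript of INSM1, like that of MAFA, has 1 exon, against 19 in RFX6.

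Basic helix-loop-helix factors such as NEUROG3 and NEUROD1 bind the E-box CANNTG. The 250 bases before the start site are shown for NEUROG3 and NEUROD1, which were listed at 0 until PP and above 0 from then on. They are also shown for NKX2-2, whose upstream start holds the most E-boxes among the genes searched, and for ISL1, which was abundant before PP. The search used RefSeq's promoter table on GRCh38.p14 and covered 5 of the 8 genes (these 4 and PAX4). INSM1 and RFX6 had no entry in it, and MAFA was left out of the search. The sequences are given 5′ to 3′ on the gene's strand, ending next to the start site. Capitals mark each CANNTG, a motif that reads the same class of sequence on both strands.
NEUROG3 (chr10:69573423-69573672, reverse strand): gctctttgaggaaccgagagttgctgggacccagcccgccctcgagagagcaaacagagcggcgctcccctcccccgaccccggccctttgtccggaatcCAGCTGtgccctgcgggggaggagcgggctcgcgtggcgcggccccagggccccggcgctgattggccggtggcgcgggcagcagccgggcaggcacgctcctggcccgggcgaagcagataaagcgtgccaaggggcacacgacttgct
NEUROD1 (chr2:181680518-181680767, reverse strand): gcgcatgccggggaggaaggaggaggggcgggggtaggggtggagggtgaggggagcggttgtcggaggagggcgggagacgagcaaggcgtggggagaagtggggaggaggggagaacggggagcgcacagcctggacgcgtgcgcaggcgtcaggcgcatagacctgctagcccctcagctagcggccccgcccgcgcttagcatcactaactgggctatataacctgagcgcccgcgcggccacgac
NKX2-2 (chr20:21522690-21522939, reverse strand): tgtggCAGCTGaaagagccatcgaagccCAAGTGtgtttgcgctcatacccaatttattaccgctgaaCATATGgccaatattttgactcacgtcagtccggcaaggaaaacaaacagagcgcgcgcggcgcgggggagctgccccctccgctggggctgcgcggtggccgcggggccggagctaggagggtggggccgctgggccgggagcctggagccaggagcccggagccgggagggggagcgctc
ISL1 (chr5:51383198-51383447, forward strand): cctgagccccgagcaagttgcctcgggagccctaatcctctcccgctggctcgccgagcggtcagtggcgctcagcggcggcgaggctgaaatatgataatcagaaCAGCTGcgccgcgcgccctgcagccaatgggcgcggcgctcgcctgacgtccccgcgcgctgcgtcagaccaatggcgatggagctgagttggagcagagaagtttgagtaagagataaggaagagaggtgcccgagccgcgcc
NEUROG3 and ISL1 each hold 1 E-box with the same letters, CAGCTG, which begins at position -150 in the former and -144 in the latter, counted from the start site. The NKX2-2 window, whose start site lies outside the GENCODE span of that gene, holds 3. The window of NEUROD1, which lies inside the GENCODE span of that gene, holds none. The windows of the other start of NKX2-2 and of both starts of PAX4 hold none either. That NKX2-2 window and the window of the downstream PAX4 start also lie inside the GENCODE spans of their genes. Of 35116 promoter windows of this length, 61.8% hold at least 1 E-box. The form that NEUROD1 favours, CAGATG, which is one of the E-boxes, was searched on both strands. It is in none of the windows of these 5 genes, whereas 12.2% of all windows hold it. The N-box of HES proteins, CACNAG on either strand, occurs 3 times before the upstream start of PAX4 and is in none of the other windows, against 32% of all windows. A match is a description of the letters and not of binding.

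The factors did not share a single time course. NEUROD1, NKX2-2, PAX4 and RFX6 were highest in SC-β organoids, NEUROG3 and INSM1 in PH, ISL1 in PGT and MAFA in undifferentiated hESCs. SC-β organoids were also the highest stage for 36.6% of all 49085 names, PH for 13.7%, hESCs for 12.4% and PGT for 10.2%. Of the 8 genes, 1 reached 1 TPM in hESCs (MAFA), 1 at DE (ISL1), 2 in PGT (ISL1 and RFX6), 5 in PP, 3 in PH and 6 in SC-β organoids. Summed over the 8, the level was 1.96 TPM in hESCs and 10.96 TPM in DE, then 65.7 TPM at PGT, 31.4 TPM at PP, 37.4 TPM at PH and 67.3 TPM in the organoids. The near-equal sums of PGT and SC-β organoids had different makeups: ISL1 alone gave 88.8% of the sum in PGT, whereas NEUROD1, the highest member in SC-β organoids, gave 31.2% there.

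**Figure D1:**
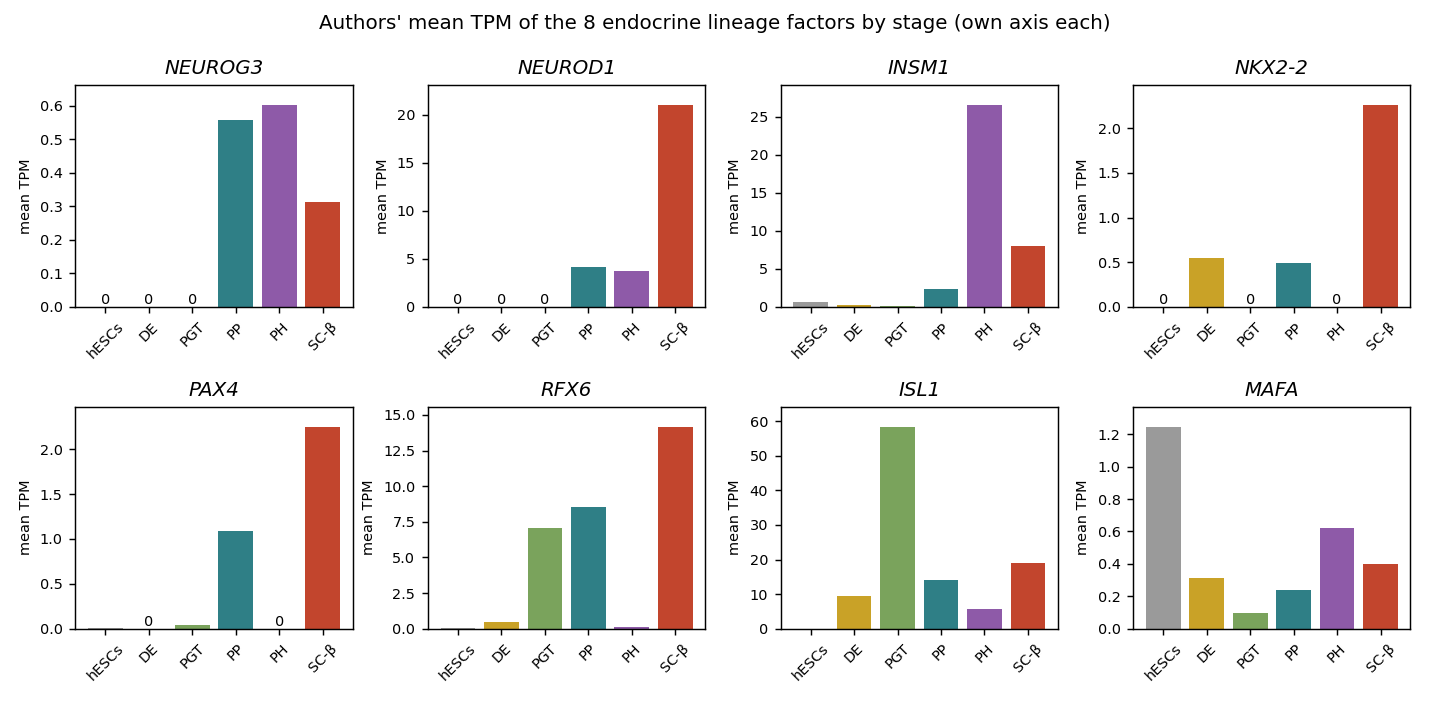
Authors' mean TPM (vertical axis, from 0 and scaled separately for each gene) of the 8 factors in the 6 stages (horizontal axis); each bar is 1 deposited mean without error, and a 0 marks a gene listed at 0. NEUROG3 and NEUROD1 have no bar before PP, ISL1 peaks in PGT at 58.3 TPM, INSM1 peaks in PH at 26.5 TPM, and MAFA is highest in hESCs at 1.25 TPM.

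NEUROG3, the initiating factor, was found from PP onward, at low levels. It was listed at 0 in hESCs, DE and PGT, and was at 0.556 TPM in PP, 0.602 TPM in PH and 0.313 TPM in SC-β organoids. It did not reach 1 TPM as deposited. Without the 100 most abundant and the mitochondrial genes it stood at 1.29 in PP and 1.62 in PH. That rescaling raises the other genes too (NEUROD1 in PP from 4.16 to 9.68), so the 2 scales cannot be compared. The PP value was above that of 53.4% of all names in the same column, and the SC-β value above that of 35.9%. Between PH and PP its log2 ratio (pseudocount of 1 TPM, used throughout) was 0.04, and between SC-β organoids and PP it was -0.25. Both were under 2-fold, as they must be on this scale for a gene under 1 TPM in both stages. With a pseudocount of 0.1 TPM the second was -0.67.

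NEUROD1, the direct target of NEUROG3 that persists in endocrine cells, was listed at 0 in hESCs, DE and PGT and was at 4.16 TPM in PP, 3.71 TPM in PH and 21.0 TPM in SC-β organoids. It was level between PP and PH, with a log2 ratio of -0.13 that turned positive when each stage was rescaled by its median ratio to the others (4.41 TPM in PH against 4.23 in PP). SC-β organoids stood above both, by 2.09 over PP and 2.22 over PH on the log2 scale. The quotient of NEUROD1 to NEUROG3 TPM was 7.48 in PP, 6.16 in PH and 67.1 in SC-β organoids. The downstream factor was therefore the more abundant one at every stage at which both were found.

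INSM1, a zinc finger factor of endocrine cells and of newborn neurons, was at 0.651 TPM in hESCs, 0.286 at DE and 0.124 in PGT, then at 2.31 in PP, 26.5 in PH and 8 TPM in SC-β organoids. Its PP value was 1.56 above PGT on the log2 scale. PH stood out, at 3.06 over PP, whereas SC-β organoids were 1.44 over PP, and their log2 ratio to PH was -1.61. Per TPM of NEUROD1 there were 0.555 TPM of INSM1 in PP, 7.15 in PH and 0.381 in SC-β organoids. PP and SC-β organoids were close in this quotient and PH was not.

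Neuron markers were highest in the same stage as INSM1. All 10 genes of the neuron list (ELAVL3, ELAVL4, TUBB3, DCX, STMN2, SNAP25, MAP2, GAP43, SYT4 and RBFOX3) were highest in PH, and all 10 were at least 2-fold higher in PH than in PP and than in SC-β organoids. Their summed TPM was 123 in PP, 1420 in PH and 213 in SC-β organoids, with none at 0 in these stages. Of 10 neural progenitor genes, 6 were at least 2-fold higher in PH than in PP and 1 was lower. Their sums were 132 and 489 TPM at PP and PH, and DBX1 was listed at 0 in PH. Of all names, 5.14% were at least 2-fold higher and 5.73% lower in PH than in PP, and 2.41% were higher in PH than in SC-β organoids. The endocrine marker list (CHGA, CHGB, SCG3, PCSK1, PCSK2, INS, GCG and SST) summed to 298 TPM in PP, 212 in PH and 4144 in SC-β organoids. Mesenchyme markers summed to 425 TPM in PP, 2056 in PH and 3421 in SC-β organoids, with none at 0. The part of these other cell types in the INSM1 value was not tested.

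NKX2-2 and PAX4 were low throughout. NKX2-2, a homeodomain factor of endocrine cells and of the ventral neural tube, was listed at 0 in hESCs, PGT and PH, and was at 0.547 TPM in DE, 0.493 at PP and 2.26 in the organoids. The organoid value was 1.13 above PP on the log2 scale, which became 0.95 after median-ratio rescaling, less than 2-fold. Its antisense neighbour NKX2-2-AS1 was at 0.102 TPM in DE and 0.0949 in SC-β organoids and listed at 0 elsewhere. Whether the authors' counting used the strand is not given in the sources used here, so these partners may share reads.

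PAX4, a paired-homeodomain factor that favours β and δ cells over α cells, was at 0.0117 TPM in hESCs, listed at 0 at DE, at 0.0438 in PGT, 1.09 in PP, listed at 0 in PH and at 2.25 in SC-β organoids. Its step from PGT to PP was just at 2-fold (log2 ratio 1.00), and that from PP to SC-β organoids was under it (0.64). The organoids, which the labels call β cells, held INS at 298 TPM and GCG, the glucagon gene of α cells, at 2793 TPM, a quotient of 9.37 against 2.38 in PP.

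RFX6, which acts in the early gut tube and again in endocrine cells, preceded NEUROG3. It was at 0.0327 TPM in hESCs, 0.458 at DE, 7.09 in PGT, 8.54 in PP, 0.124 in PH and 14.2 in SC-β organoids. PGT was 2.47 above DE on the log2 scale, while PP was only 0.24 above PGT and SC-β organoids 0.67 above PP. PH broke the series, at 3.09 below PP and 3.75 below SC-β organoids.

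Most pancreatic progenitor factors were low in PH as well. Of the 10 listed, 8 were at least 2-fold lower in PH than in PP, including PDX1 (0.0173 against 3.17 TPM) and FOXA2 (1.17 against 13.2 TPM). PTF1A was the exception that was higher, at 7.61 against 1.02 TPM, and SOX9 was at 27.2 against 23.7 TPM. The median log2 ratio of this list was -1.97, beside 0 for all names, of which 5.73% were at least 2-fold lower and 5.14% higher.

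ISL1 was the only one of the 8 at 1 TPM or more in DE and, at its peak, the most abundant of the 8 factors. It was at 0.0206 TPM in hESCs, 9.36 at DE, 58.3 in PGT, 13.98 in PP, 5.79 in PH and 18.9 in SC-β organoids. Each of the early steps was large: 3.34 from hESCs to DE and 2.52 from DE to PGT on the log2 scale. It was then 1.99 lower in PP than in PGT. PH was 1.14 lower than PP, or 0.95 lower after median-ratio rescaling, and the SC-β value was 0.41 above PP. In PGT, ISL1 exceeded 96.4% of all names.

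CHGA, the granin that marks endocrine cells, was at 0.438 TPM in PGT, so the stage with most ISL1 had the least of it. Markers of cardiac or lateral mesoderm were present in PGT: 9 of 10 reached 1 TPM, 5 were highest there, and 6 were at least 2-fold above DE, with HAND1 at 50.4, GATA5 at 20.4 and TBX20 at 15.6 TPM. Their sum was 131 TPM in DE, where MYL7 gave 110.0, and 108 TPM in PGT, with TBX5 at 0 in DE and none at 0 in PGT. Hepatic markers summed to 1485 TPM in PGT against 48.5 at DE, with TTR alone at 943 and 0.306 TPM, and 7 of 8 were at least 2-fold higher. Of all names 2.3%, and of those at 1 TPM or more 4.94%, were higher in PGT than in DE. Of the 7 genes of the motor neuron list, 4 were listed at 0 in PGT, LHX3, CHAT and SLC18A3 among them, while LHX4 was at 3.22 TPM, MNX1 at 0.544 and ISL2 at 0.0148. The part of these cell types in the ISL1 value was not tested.

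**Figure D2:**
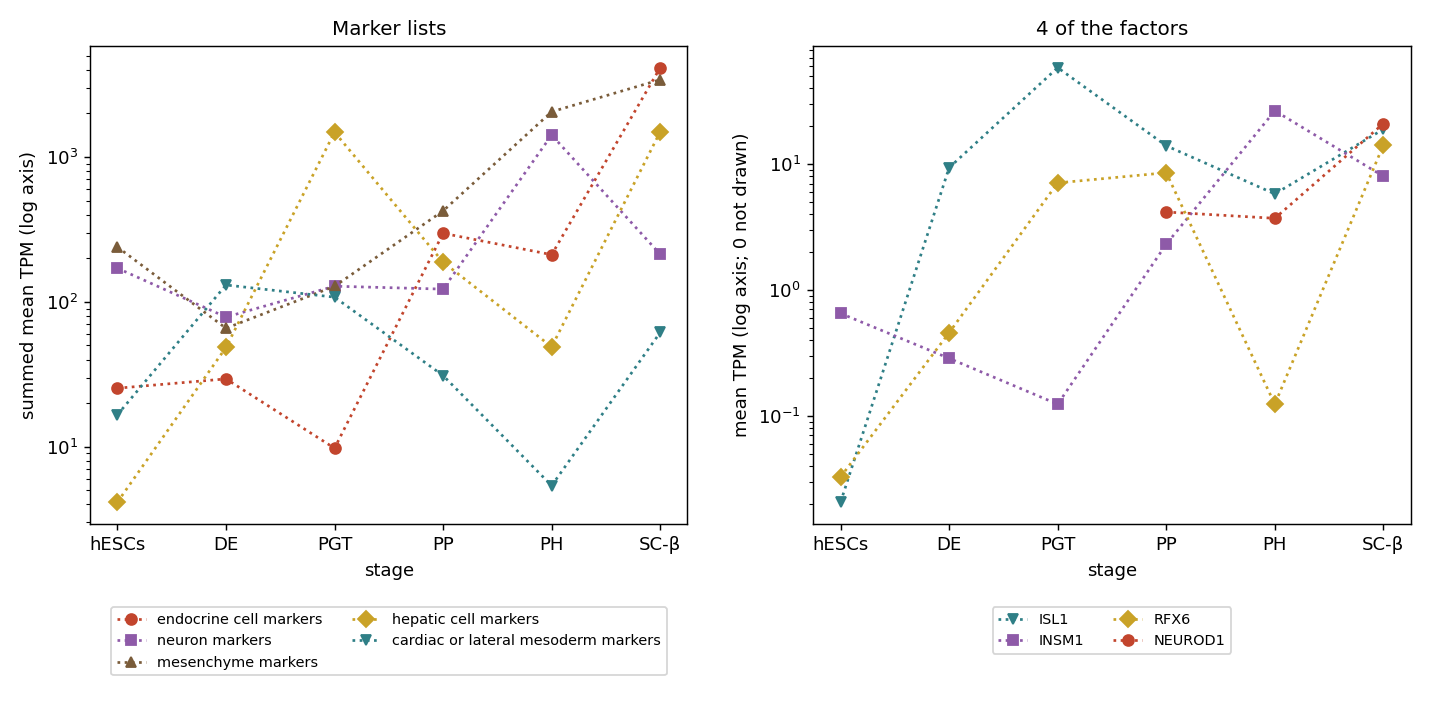
Summed mean TPM of 5 marker lists (left) and mean TPM of ISL1, INSM1, RFX6 and NEUROD1 (right), both on log axes, in the 6 stages in the order of the deposited columns; each point is a deposited mean or a sum of them, without error, and the dotted lines only guide the eye. Neuron markers peak in PH (1420 TPM) with INSM1, hepatic markers are lower in PH (48.9 TPM) than in PP and SC-β organoids as is RFX6, and ISL1 peaks in PGT.

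MAFA, which activates insulin transcription in mature β cells, was not raised at the organoid stage. It was at 1.25 TPM in hESCs, 0.312 at DE, 0.0982 in PGT, 0.239 in PP, 0.623 in PH and 0.401 in SC-β organoids, so that undifferentiated cells had the highest value. With the pseudocount of 1 TPM its log2 ratio from hESCs to DE was -0.78, under 2-fold, and no other step was larger. At these levels the pseudocount sets the call: with 0.1 TPM the ratios were -1.71 from hESCs to DE, -1.06 from DE to PGT and 1.09 from PP to PH, all past 2-fold. Without the 100 most abundant and the mitochondrial genes the first of them was -1.21. MAFA-AS1, its antisense neighbour, was at 0.547 TPM in hESCs and listed at 0 in PP and SC-β organoids.

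The comparisons between stages count a gene from 2-fold on the log2(TPM + 1) scale, so a gene under 1 TPM in both stages cannot reach it. From hESCs to DE, 1 of the 8 genes was higher (ISL1), against 12.9% of all names, and 0 were lower, against 2.55%. After median-ratio rescaling the counts of the 8 were the same, beside 7.32% and 4.82% of all names. From DE to PGT, 2 were higher (ISL1 and RFX6; 2.3% of all names) and 0 lower (4.92%). From PGT to PP, 3 were higher (NEUROD1, INSM1 and PAX4; 2.74%) and 1 lower (ISL1; 3.25%). Most names in the table are near 0. Among names at 1 TPM or more in either stage compared, the shares higher and lower were 28.2% and 5.55% from hESCs to DE, 4.94% and 10.6% from DE to PGT, and 6.30% and 7.46% from PGT to PP.

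Between PP and PH, 1 of the 8 was higher (INSM1; 5.14% of all names) and 3 were lower (PAX4, RFX6 and ISL1; 5.73%). After median-ratio rescaling 1 of the 8 was higher and 2 were lower in PH, beside 6.84% and 4.45% of all names. Without the 100 most abundant and the mitochondrial genes 1 was higher and 4 were lower, beside 9.89% and 7.14%. Between PP and SC-β organoids, 3 were higher (NEUROD1, INSM1 and NKX2-2; 10.6%) and 0 lower (0.939%). After median-ratio rescaling 2 were higher and 0 lower, beside 7.03% and 1.51% of all names. Between PH and SC-β organoids, which shares the organoid mean with the comparison before it, 5 were higher (NEUROD1, NKX2-2, PAX4, RFX6 and ISL1; 14.7%) and 1 was lower (INSM1; 2.41%). Both rescalings left these counts at 5 and 1. The rescaled shares of all names were 8.24% and 4.30%, and those without the most abundant genes 14.8% and 5.71%. Among names at 1 TPM or more in either stage, 11.5% were higher and 12.8% lower in PH than in PP, 20.7% and 1.84% in SC-β organoids than in PP, and 28.1% and 4.60% in SC-β organoids than in PH. The median log2 ratio of the 8 genes was 0 in each of the steps to DE and PGT, 0.61 in PP against PGT, -0.36 in PH against PP, 0.65 in SC-β organoids against PP and 1.63 in SC-β organoids against PH. Over all names these medians were 0.12, -0.03, 0, 0, 0.16 and 0.20.

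**Figure D3:**
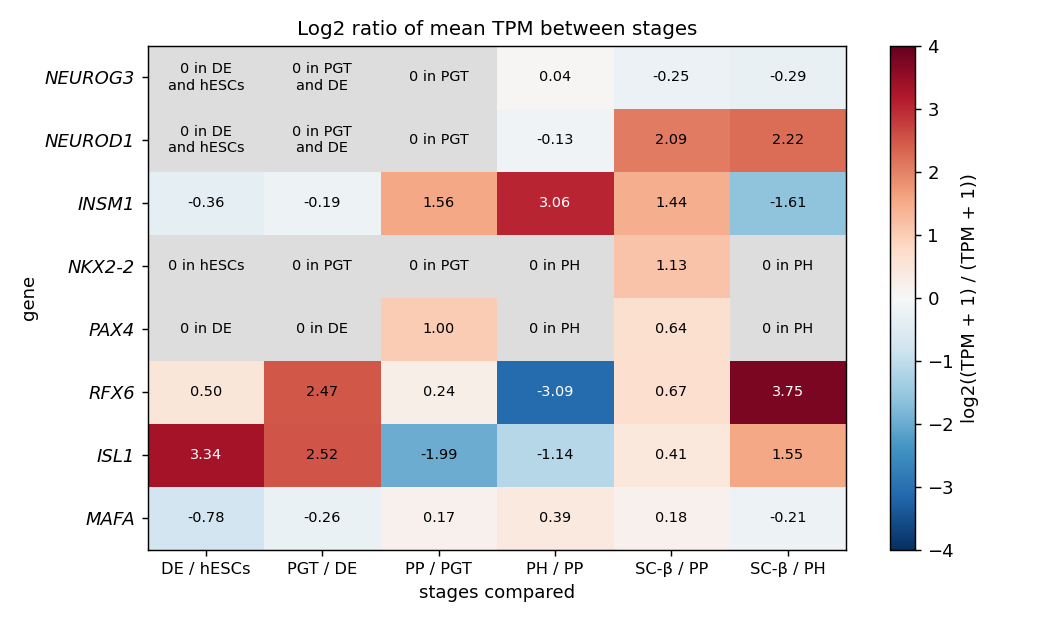
Log2 ratio of mean TPM (pseudocount of 1 TPM) of the 8 factors (rows) in 6 comparisons of stages (columns), from blue (lower in the stage named before the slash) to red (higher); grey cells name the stage in which a gene is listed at 0, for which no ratio is shown. RFX6 (-3.09) and INSM1 (3.06) lie at opposite ends in PH against PP.

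Relative to CHGA, the factors split at the organoid stage. Per 1000 TPM of CHGA there were 2.59 TPM of NEUROG3 at PP and 0.388 in the organoids, and 39.7 and 17.6 TPM of RFX6. ISL1 stood at 65.0 and 23.5, PAX4 at 5.06 and 2.79, and MAFA at 1.11 and 0.498. RFX6, ISL1, PAX4 and MAFA had lower quotients although their TPM was higher in the organoids than in PP. NEUROD1 (19.3 and 26.1), INSM1 (10.7 and 9.94) and NKX2-2 (2.29 and 2.805) stayed nearer to their PP quotients. CHGA itself was at 215 TPM (PP) and 805 TPM (SC-β organoids), so every quotient depends on that one gene.

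Among 20 other transcription factors of endocrine development, 15 reached 1 TPM in PP, 14 in PH and 19 in SC-β organoids. Against PGT, 8 were at least 2-fold higher in PP and 3 lower, beside 2.74% and 3.25% of all names (6.30% and 7.46% of those at 1 TPM or more). SC-β organoids had 9 higher than PP and 1 lower (HHEX, at 2.58 against 8.03 TPM), with a median log2 ratio of 0.98 beside 0.16 for all names. Among those highest in the organoids were GLIS3 (43.1 TPM), NKX6-1 (5.37), FEV (2.68), RFX3 (36.5) and LMX1A (32.2), the last of them a factor of enterochromaffin cells, which make serotonin. TPH1, the enzyme of serotonin synthesis in those cells, was at 14.2 TPM in SC-β organoids and 0.500 in PP, and 6 of 10 enteroendocrine genes were at least 2-fold higher than in PP. Hepatic markers summed to 1495 TPM in the organoids against 188 TPM at PP, and TTR alone gave 1229 and 55.8 TPM of these sums. Which cells held the TTR transcripts was not tested, so these sums need not reflect hepatic cells. Of 8 hepatic markers 3 were at least 2-fold higher than at PP, as were 3 of 8 exocrine markers. In this comparison 10.6% of all names, and 20.7% of those at 1 TPM or more, were higher. The part of such cells in the organoid values of the 8 factors was not tested.

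In PH this list divided evenly, with 7 factors at least 2-fold higher than in PP and 7 lower. Of all names 5.14% were higher and 5.73% lower (11.5% and 12.8% of those at 1 TPM or more). The higher ones were PAX6 (17.2 against 2.27 TPM), ST18 (74.4 against 4.93), MYT1 (41.0 against 0.299), IRX1 (28.6 against 2.32), POU3F4 (7.17 against 0.268), SOX4 (193 against 75.5) and SOX11 (119 against 49.7). The lower ones were PDX1, NKX6-1 (0.256 against 2.204 TPM), MNX1 (1.71 against 5.85), GLIS3 (2.66 against 12.0), HHEX (0.108 against 8.03), MLXIPL (0.173 against 1.66) and ETV1 (5.97 against 22.6). Among the 8 main factors, INSM1 was thus with the higher set and RFX6, PAX4 and ISL1 with the lower.

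**Figure D4:**
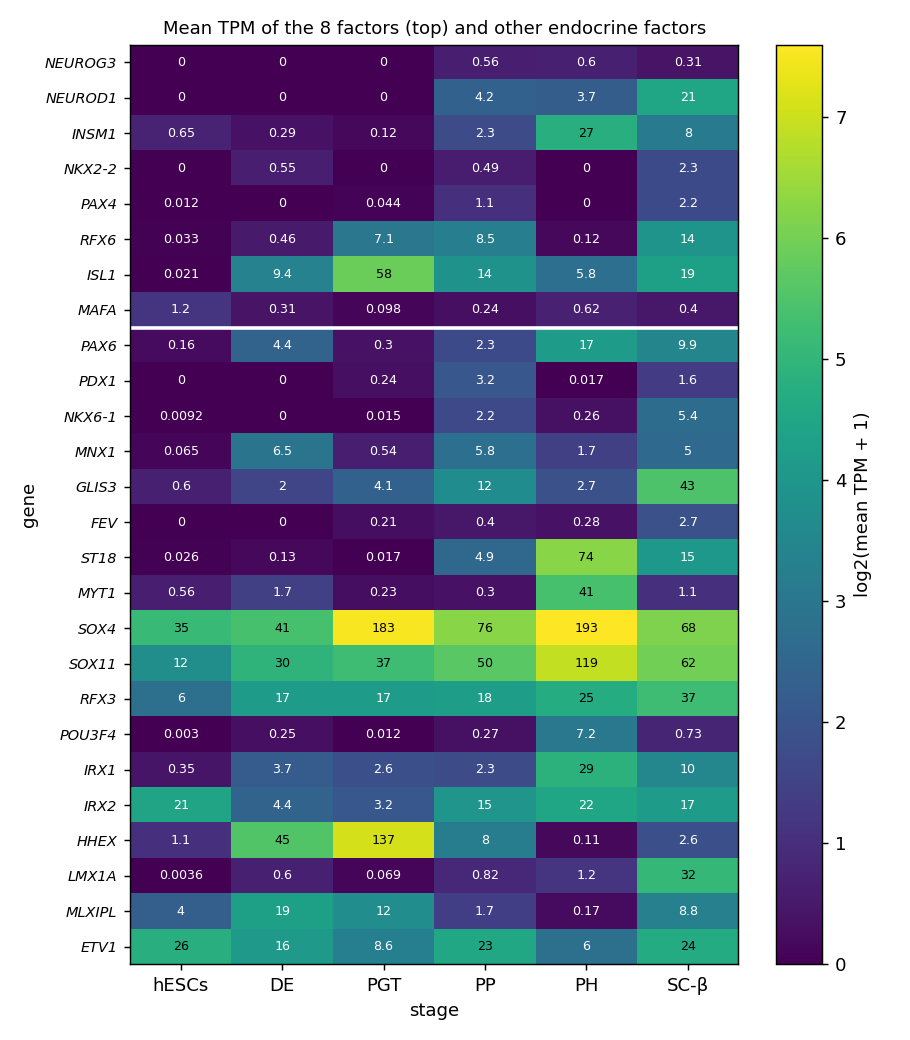
Mean TPM (printed in each cell, coloured by log2(mean TPM + 1)) of the 8 factors above the white line and of 18 other endocrine transcription factors below it, in the 6 stages; each cell is 1 deposited mean without error. GLIS3 (43.1 TPM) and RFX3 (36.5 TPM) are highest in SC-β organoids, while ST18 (74.4 TPM) and MYT1 (41.0 TPM) are highest in PH, as is INSM1.

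Notch pathway genes, whose activity restrains NEUROG3, were mostly within 2-fold between PGT and PP: 3 of 20 were at least 2-fold higher in PP and 2 lower. Of all names 2.74% were higher and 3.25% lower (6.30% and 7.46% of those at 1 TPM or more). HES1, the repressor of NEUROG3, was at 68.7 TPM in PGT, 44.4 in PP, 46.5 in PH and 50.0 in SC-β organoids. The ligand DLL1, which NEUROG3 activates, was at 21.9 TPM in PGT, 8.10 in PP, 76.5 in PH and 4.20 in SC-β organoids. In PH, 8 of the 20 were at least 2-fold above PP and 1 below, with a median log2 ratio of 0.44 beside 0 for all names, of which 5.14% were higher and 5.73% lower (11.5% and 12.8% of those at 1 TPM or more). HES5, a Notch target of neural progenitors, was at 110 TPM there and at 0.0882 in PP, DLL3 at 24.2 against 1.11 TPM and NOTCH1 at 62.8 against 9.30 TPM. NEUROG3 was nearly the same in PH and PP, as given above.

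Genes of hormone production were counted in the same way. Of 6 islet hormones, 4 were at least 2-fold higher in PP than in PGT, beside 2.74% of all names (6.30% of those at 1 TPM or more). From PP to SC-β organoids 5 of the hormones were higher, the other being GHRL (18.1 at PP and 12.7 TPM in the organoids). Of 10 granin and prohormone-processing genes, 8 were at least 2-fold higher in SC-β organoids than in PP, and of 12 genes of β-cell function 6 were, with 0 lower in both lists. In this comparison 10.6% of all names, and 20.7% of those at 1 TPM or more, were higher. SLC30A8, the zinc transporter of insulin granules, was at 0.110 TPM at PP and 27.1 TPM in the organoids, and ABCC8, a subunit of the ATP-sensitive potassium channel, at 4.27 and 38.3 TPM. UCN3, a marker of mature β cells, was at 0.0249 and 0.880 TPM, and IAPP at 0.0723 and 1.83 TPM. In PH, 0 of the hormones and 0 of the β-cell genes differed at least 2-fold from PP in either direction. Several of them, IAPP, SLC30A8 and UCN3 included, were under 1 TPM in both stages and could not reach 2-fold on this scale. Of all names 5.14% were higher and 5.73% lower there.

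For the 4 factors that reached 5 TPM, the protein-coding genes with the most similar TPM over the 6 stages were sought by the mean absolute difference of log2(TPM + 1), over 17457 candidates. For NEUROD1 these were MEOX1 (0.15; 5.83 TPM in PP, 4.36 in PH and 17.9 in SC-β organoids), EHF (0.21) and EDN3 (0.23). For INSM1 they were PPFIA2 (0.29), PTPRO (0.29) and SNAP25 (0.31), the last at 3.97, 32.8 and 13.2 TPM in PP, PH and SC-β organoids. For RFX6 they were CLIC5 (0.32; 3.67 TPM in PGT, 0.290 in PH and 13.5 in SC-β organoids), FGG (0.48) and CTSE (0.50). For ISL1 they were PRKD1 (0.34; 51.3 TPM in PGT and 6.89 in PH), F10 (0.45) and KIF12 (0.52). The values describe likeness over 6 means alone.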

How the data were processed

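RNA-seq was the assay used, from 12 of the 148 samples in the series; the chromatin samples were not analysed here. Per the submitters' processing notes, the authors used HISAT2 2.2.0 on the hg38 build and computed TPM per gene with StringTie 2.1.6, and the deposited TPM table holds the mean of the 2 replicates of each stage. The annotation behind it is not given in the sources used here. Its 50451 entries have 49085 names, and entries of 1 name were summed. Both replicates are averaged, so no test was run. Log2 ratios were computed with a pseudocount of 1 TPM and counted from 2-fold. Named genes were the 8 members, genes of fixed lists (values for those highest in PP, PH or SC-β organoids and for transcription factors reaching 1 TPM), and the 3 protein-coding genes most like each member at 5 TPM or more. The members and lists were chosen with earlier results of these data known; which of these list genes are printed, and HAND1, GATA5, TBX20, MYL7 and the members of other lists outside the rule, was chosen after the values were seen. Alternatives were a pseudocount of 0.1 TPM, median-ratio rescaling over 13938 names, totals without the 100 most abundant and the mitochondrial genes, a 4-fold threshold, a filter at 1 TPM, the highest entry of a name, and Pearson's r for likeness. Values of some list genes are not reported here. The counting was tested on simulated data. Python 3.11.15, numpy 2.4.6, pandas 2.3.3 and matplotlib 3.10.9 were used.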

Additional observations from a re-analysis of the deposited data

How the results depend on the processing

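Of 75 counts under the alternatives 60 stayed within 1.5 times the value given and 15 moved. The log2 ratios followed were 33, because those with a stage listed at 0 were left out. Of their 187 values under the alternatives, 172 kept their side of the threshold, 10 were no longer past it and 5 newly passed it. None changed direction while past it. Most of the 10 were unchanged ratios set against the 4-fold threshold. Using the highest entry of a name could change none of these counts and ratios, because each of the 8 genes has 1 entry. The filter at 1 TPM could not either, because a 2-fold call with the pseudocount of 1 TPM already needs that level in a stage. Their unchanged results are included in these totals. With a pseudocount of 0.1 TPM, 3 factors were higher and 1 lower in DE, against 31.4% and 6.51% of all names. At that setting 2 were lower in PGT (15.9% of all names), 5 higher in PP (9.57%) and 2 higher in PH against PP (13.0%). Without the 100 most abundant and the mitochondrial genes, 2 were higher and 1 lower in DE (16.3% and 4.10% of names). There 1 was lower in PGT (6.40%) and 5 were higher in PP (4.86%). At 4-fold, 1 was higher and 0 lower in PP (0.735% and 0.680% of all names), and 1 was lower in PH against PP (1.01%). In SC-β organoids 1 was higher against PP (1.72%), and 2 were higher and 0 lower against PH (2.35% and 0.613%). The cause of the other moves was not tested, while those at 4-fold follow from the stricter threshold. Median-ratio rescaling moved the median of all names from 0.12 to 0.02 in DE against hESCs and from 0.20 to 0.05 in SC-β organoids against PH. By Pearson's r, 2 of the 3 genes most like NEUROD1 were shared, 1 for ISL1 and 0 for INSM1 and RFX6. No paired analysis was possible because each deposited column is already an average, and for the same reason leaving out each replicate was not run. The values of MAFA, NEUROG3 and, before SC-β organoids, NKX2-2 are near the low end of the table, where the depth is unknown.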
